A study of Mus musculus with 12 samples.

Results

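The axon guidance families, the ephrins, Eph receptors, semaphorins, plexins, neuropilins, netrins, Unc5 receptors, Slits and Robos, were examined in growing and fully grown mouse oocytes. Members were taken by gene symbol from the deposited counts, which gave 71 of the 24562 genes in the table. Of these, 35 are ligands and 33 are receptors of the named families, and 3 match only by the letters of their symbol and are no guidance receptors of these families: Unc50, Unc5cl and the antisense RNA Plxna4os1.

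These families were named for their part in steering growing axons. Ephrins are membrane-bound ligands of the Eph receptor tyrosine kinases, semaphorins bind plexins, with neuropilins as co-receptors for the secreted class 3, netrins bind Unc5 receptors and Dcc, and Slits bind Robos. The same pairs act outside the nervous system, where they control adhesion, repulsion and cell shape at contacts between cells and in the growth of vessels. In the ovarian follicle the oocyte is in contact with the cumulus cells around it through fine processes that cross the zona pellucida.

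RNA-Seq was run on 12 pools of oocytes from CD-1 mice, an outbred strain, with 18 to 45 oocytes in a pool and 3 pools in each of 4 cohorts. The cohorts were taken at postnatal day (PND) 13, at PND 16 and at PND 40, and the mice of PND 16 were divided by body weight into a lighter cohort (PND 16 small) and a heavier one (PND 16 large). No animal received gonadotropins, all oocytes were freed from cumulus-oocyte complexes of antral follicles, and all were held at the immature, germinal vesicle stage with milrinone. The study calls PND 13 and PND 16 small oocytes meiotically non-competent and PND 16 large and PND 40 oocytes competent, and each class holds 6 pools. Pools mix oocytes, the labels do not tie a pool to single animals, and p-values therefore measure the spread between pools. Where competent and non-competent pools are compared, that spread also holds the differences between the cohorts within each class.

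Total counts ran from 17671193 to 27418358 per pool, so that 3 counts correspond to 0.110 to 0.178 CPM, the counts per 1000000 counts of a library scaled by TMM. All 15 oocyte markers on the list were found, with a summed level of 20812 to 28527 CPM. Granulosa and cumulus markers were uneven: Inha, which codes for the inhibin alpha subunit of granulosa cells, was at 97.1 and 143 CPM in PND 13 pools 1 and 3 and at 130.5 CPM in PND 16 small pool 2, and at 2.34 to 20.7 CPM in the other 9 pools. The list was split. Gja1, Inhbb, Inhba, Amh, Amhr2, Foxl2, Fshr, Fst, Hsd17b1 and Wt1 were also highest in these 3 pools. Cyp19a1, Nr5a2, Kitl, Nr0b1, Gatm, Serpine2 and Esr2 did not have their 3 highest levels there. Serpine2 was at 199 to 237 CPM in these pools and 224 to 331 CPM in the others. Esr2 was at 74.2 to 125 CPM there and 83.5 to 148 CPM in the others. The summed level of the 18 granulosa and cumulus markers was 489 to 955 CPM in PND 13, 532 to 1059 in PND 16 small, 635 to 678 in PND 16 large and 565 to 607 in PND 40. In pools of low Inha a few genes made up most of this sum. In PND 13 pool 2 Serpine2, Nr5a2 and Esr2 were at 270, 87.9 and 87.2 CPM, beside 2.34 CPM of Inha and 1.37 CPM of Gja1. In RNA from pools, fewer cells of a type and less RNA per cell cannot be told apart. Calls described below that were lost without the 3 pools of high Inha are given with the value without them. Leaving them out leaves 1 pool of PND 13 (pool 2) and 2 of PND 16 small, and that lone PND 13 pool is then assumed to vary like the other cohorts, so a loss of a call against PND 13 there is a comparison with 1 pool.

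The most abundant guidance transcripts of the oocyte were receptors, and their highest cohort mean was 1.15 (Plxnb2) to 1.33 (Ephb6) times the lowest. Levels of different genes were compared as CPM per kb of merged exons, and 63 members passed the filter on low counts. Plxna1, a plexin that transmits class 3 and class 6 semaphorin signals, had the highest level of the families, 37.9 CPM per kb over the 12 pools, followed by Plxnb2, a receptor of class 4 semaphorins, at 31.1. Unc5c, a netrin receptor, was at 23.2 CPM per kb and Ephb6, an Eph receptor without kinase activity, at 19.96. The most abundant ligands were the membrane-anchored ephrin Efna5 at 19.4, the transmembrane semaphorin Sema4d at 17.9 and the transmembrane ephrin Efnb2 at 15.5 CPM per kb. With all 12 pools, none of these 7 genes was called in any comparison by edgeR or DESeq2. Plxna1, Unc5c, Ephb6, Efna5 and Sema4d each had an adjusted p of at most 0.05 in at least 1 comparison, with a change under 1.5-fold. Without the 3 pools of high Inha, edgeR called Efna5 in PND 40 vs. PND 16 small and Sema4d in PND 16 large vs. PND 16 small. Sema4d was then also called in PND 16 large vs. PND 13, where PND 13 is 1 pool. The order among close neighbours is not firm, since the cohort means of Efna5 ran from 15.3 to 21.6 and those of Sema4d from 14.8 to 22.0 CPM per kb. Sema4d stood at 131 to 176 CPM in the competent pools, above the 106 to 128 CPM of the non-competent pools, a rise under 1.5-fold.

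**Figure D1:**
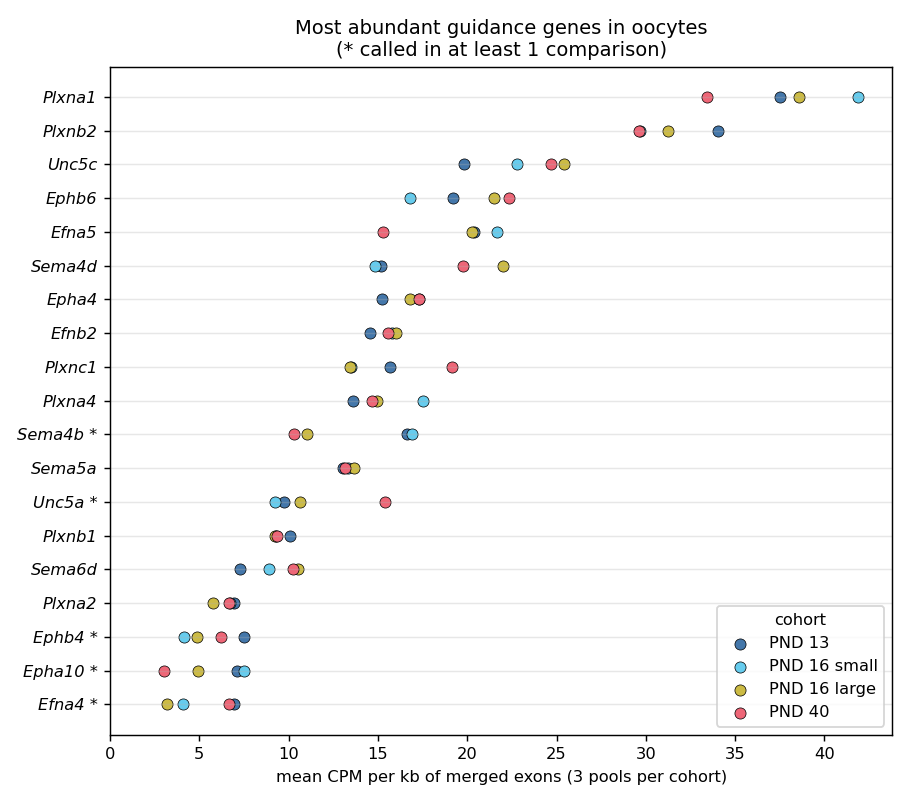
Mean level of the 19 most abundant guidance genes (horizontal axis, CPM per kb of merged exons) in each of the 4 cohorts (coloured points, mean of 3 pools). Plxna1 and Plxnb2 lie furthest to the right, and the 4 points of Sema5a nearly coincide while those of Sema4b, Unc5a and Epha10 are spread apart.

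Sema5a, a transmembrane semaphorin, shows how steady a member could be. Its pools stood at 239, 245 and 247 CPM in PND 13, at 251, 225 and 269 in PND 16 small, at 260.0, 247 and 259 in PND 16 large, and at 246, 249 and 244 in PND 40. All cohorts overlapped, and the highest cohort mean was 1.05 times the lowest. Epha4, an Eph receptor that binds both ephrin classes, was at 122.7 ± 14.1 CPM in PND 13 and 139.5 ± 14.2 CPM in PND 40 (mean ± SD over 3 pools, as throughout), and Nrp1, the neuropilin that serves Sema3a, at 48.4 ± 7.37 and 48.8 ± 3.85 CPM. Neither was called, with a log2 fold change in PND 40 vs. PND 13 of 0.19 (SE 0.12) for Epha4 and 0.01 (SE 0.12) for Nrp1.

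Most members were scarce. A mean level above 10 CPM per kb was reached by 14 members, 37 lay under 1 CPM per kb, and 23 of the 63 tested lay above the median of the genes tested. The 8 members not tested were Epha8, Ntn3, Ntn5, Robo4, Sema4g, Sema6c, Unc5cl and Plxna4os1. None of them had more than 23 counts in any pool, and Robo4 and Plxna4os1 had 0 counts in all 12.

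A member was called when edgeR's quasi-likelihood test gave a Benjamini-Hochberg adjusted p of at most 0.05 over all genes tested together with a change of at least 1.5-fold. Between PND 16 small and PND 13 oocytes no member was called by this rule, where 0.373% of all genes were (0.179% higher and 0.194% lower). At an unadjusted p under 0.05 there were 14 members, beside 19.2% of all genes, and DESeq2 called 4 (Ephb4, Robo2, Sema3b and Sema3d), beside 2.59% of all genes. The count rose to 9 when PND 16 small pool 1 was left out. For refits with 1 pool left out, here and below, the share of all genes called was not taken. PND 16 large oocytes differed from PND 13 oocytes in 13 members, 6 higher and 7 lower, or 20.6% of those tested beside 13.3% of all genes (3.52% higher and 9.8% lower). That count fell to between 4 (without PND 16 large pool 1) and 9 (without PND 13 pool 1) with any 1 pool of these cohorts left out, and it was 7 without the 3 pools of high Inha, where PND 13 is 1 pool. Of these 7, beside 7.16% of all genes, 4 were among the first 13.

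PND 40 oocytes stood further from both non-competent cohorts. Against PND 13, 20 members were called, 8 higher and 12 lower, which is 31.7% of the members beside 18.9% of all genes (6.31% higher and 12.6% lower). Against PND 16 small, 22 were called, 14 higher and 8 lower, or 34.9% beside 17.2% (6.89% higher and 10.3% lower). The median log2 fold change of the members was near 0 in both, -0.07 beside 0.00 for all genes against PND 13 and -0.00 beside -0.01 against PND 16 small. Called members thus moved in both directions. Without the 3 pools of high Inha the count against PND 13, then 1 pool, was 10, of which 9 were among the first 20, beside 10.1% of all genes. Against PND 16 small it was 22, of which 18 were shared with the first 22, beside 17.2% of all genes. With 1 pool left out this count ranged from 14, without PND 40 pool 1, to 26, without PND 16 small pool 1.

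Between the body-weight cohorts of PND 16, 4 members were called in large vs. small oocytes, 1 higher (Slit3) and 3 lower (Epha10, Robo1 and Sema4b), or 6.35% beside 6.19% of all genes (1.43% higher and 4.76% lower), a share near the background. Leaving out 1 pool gave 0 calls without PND 16 large pool 1, 1 without PND 16 large pool 2, and 4 or 5 without any of the others. Without the 3 pools of high Inha 7 were called, beside 7.97% of all genes, and 2 of them were among the first 4. Between the competent cohorts, PND 40 vs. PND 16 large, 7 members were called, 3 higher and 4 lower, or 11.1% beside 3.66% of all genes (2.34% higher and 1.32% lower). With 1 pool of these cohorts left out, 3 were called without PND 40 pool 2 or 3, 4 without PND 16 large pool 1 or 3, and 5 without either remaining pool. In the comparison of the 6 competent with the 6 non-competent pools, 13 members were called, 7 higher and 6 lower, or 20.6% beside 15% of all genes (3.78% higher and 11.2% lower). These comparisons share cohorts, so their calls are not separate pieces of evidence.

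**Figure D2:**
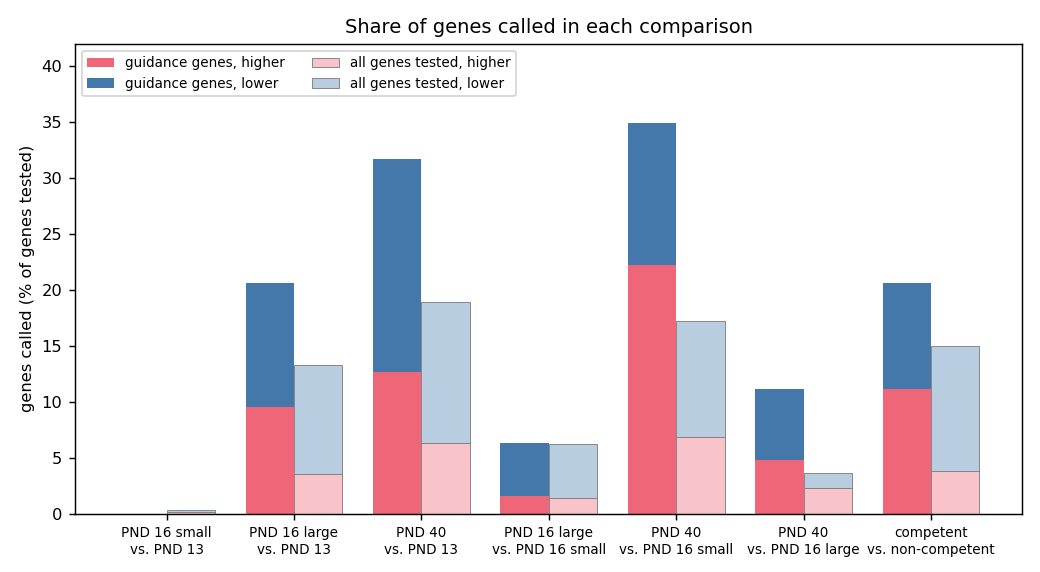
Share of genes called (vertical axis, % of genes tested) in the 7 comparisons, for the 63 guidance genes tested (saturated bars) and all 13943 genes tested (pale bars), divided into genes higher (red) and lower (blue) in the first-named group. The guidance bars reach 31.7% and 34.9% in the 2 comparisons of PND 40 with non-competent oocytes, and in PND 16 large vs. PND 16 small both bars stand near 6%.

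Over the 7 comparisons 31 of the 63 tested members were called at least once, beside 30.3% of all genes. Of these, 16 were called only as higher in the older or competent group (11.3% of all genes), 13 only as lower (18% of all genes) and 2, Efna4 and Ephb4, in both directions (0.99% of all genes). The other 32 tested members were not called by edgeR with all 12 pools and the count filter used here. DESeq2 called 3 of them, Efna2, Sema3c and Sema3d, in 1 comparison each. In the competent vs. non-competent comparison 8 of the 13 calls held with each of the 12 pools left out in turn and under every other setting tried: Epha5, Ephb2, Ntn1 and Slit3, which were higher, and Epha10, Robo1, Sema4b and Unc5b, which were lower.

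For 2 members that rose, Epha5 and Sema3e, and 2 that fell, Epha7 and Epha10, the promoter windows of RefSeq (GRCm38.p6, 250 bases before to 50 after the transcript start, written on the gene's strand) are shown to give the sequence around their starts. Capitals mark TAATTG and TAATTA, the elements bound by the oocyte homeobox factor NOBOX, and CANNTG, the E-box of bHLH factors such as FIGLA, of which CACGTG is a part. All were searched on both strands. The windows are chr5:84417333-84417632 (minus strand) for Epha5, chr5:14025026-14025325 (plus) for Sema3e, chr4:28812881-28813180 (plus, 1 of 2 windows of this gene) for Epha7 and chr4:124881535-124881834 (plus) for Epha10.
Epha5: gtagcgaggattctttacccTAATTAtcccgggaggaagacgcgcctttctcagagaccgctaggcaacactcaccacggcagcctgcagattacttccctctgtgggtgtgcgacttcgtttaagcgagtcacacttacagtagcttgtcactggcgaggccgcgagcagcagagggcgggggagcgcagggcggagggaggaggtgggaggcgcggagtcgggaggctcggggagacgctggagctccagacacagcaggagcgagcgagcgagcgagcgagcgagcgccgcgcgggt
Sema3e: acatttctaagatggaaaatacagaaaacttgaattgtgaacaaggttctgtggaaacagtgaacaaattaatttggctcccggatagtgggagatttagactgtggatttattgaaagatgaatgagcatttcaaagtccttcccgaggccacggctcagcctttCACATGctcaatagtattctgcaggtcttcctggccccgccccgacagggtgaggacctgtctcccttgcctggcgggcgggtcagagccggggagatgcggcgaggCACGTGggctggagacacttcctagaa
Epha7: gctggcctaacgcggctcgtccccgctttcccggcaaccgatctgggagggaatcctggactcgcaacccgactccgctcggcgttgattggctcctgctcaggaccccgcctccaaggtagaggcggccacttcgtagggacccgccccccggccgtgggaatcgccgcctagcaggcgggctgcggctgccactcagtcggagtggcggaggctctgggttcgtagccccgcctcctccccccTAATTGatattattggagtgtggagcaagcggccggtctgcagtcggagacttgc
Epha10: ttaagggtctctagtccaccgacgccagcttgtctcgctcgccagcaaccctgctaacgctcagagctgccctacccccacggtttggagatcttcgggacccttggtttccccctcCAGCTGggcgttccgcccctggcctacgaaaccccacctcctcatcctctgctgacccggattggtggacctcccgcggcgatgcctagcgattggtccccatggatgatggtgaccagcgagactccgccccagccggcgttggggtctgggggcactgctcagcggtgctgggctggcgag
Epha5 held TAATTA 230 bases before its start and Epha7 held TAATTG 5 bases before its start, while the Sema3e window held E-boxes 84 bases before and 23 bases after the start, the latter being CACGTG, and the Epha10 window held 1 E-box 133 bases before it. Among 32851 windows of this length, TAATTG occurred in 8.0%, TAATTA in 5.29%, CANNTG in 72.3% and CACGTG in 7.15%. In the 77 windows of the 61 members matched, the shares were 5.19%, 3.9%, 51.9% and 6.49%. These matches describe the letters only and no binding was measured.

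Among the 8 ephrin ligands, the change was largest in Efna1, which is anchored to the membrane by a lipid and binds EphA receptors. Efna1 (chromosome 3, 89271733 to 89281142, minus strand) was at 1.81, 3.24 and 2.99 CPM in PND 13, at 3.6, 1.09 and 2.19 in PND 16 small, at 1.84, 1.22 and 1.83 in PND 16 large, and at 9.99, 5.69 and 8.45 in PND 40. All 3 PND 40 pools lay above all 9 others, whose cohorts overlapped one another. Efna1 was higher in PND 40 than in PND 16 large oocytes by 2.30 on the log2 scale (SE 0.41, adjusted p = 0.00603 by the quasi-likelihood test of edgeR after Benjamini-Hochberg adjustment, as for all adjusted p below), 4.92-fold. This call and that against PND 16 small (1.81, SE 0.40, adjusted p = 0.00454) held in every refit. The call against PND 13 (1.58, SE 0.40, adjusted p = 0.00814) was lost without the 3 pools of high Inha, where the change from the 1 PND 13 pool left was 1.31 (adjusted p = 0.077).

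Efna4, a second class A ephrin, was lowest in the middle of the series. Its mean was 11.1 ± 1.73 CPM in PND 13, 6.52 ± 2.86 in PND 16 small, 5.07 ± 0.837 in PND 16 large and 10.6 ± 2.06 in PND 40. The PND 16 large pools, at 6.01, 4.42 and 4.78 CPM, lay below every PND 13 and PND 40 pool. It was lower in PND 16 large than in PND 13 by 1.13 log2 units (log2 fold change -1.13, SE 0.28, adjusted p = 0.00972), a call kept in every refit, and higher in PND 40 than in PND 16 large by 1.06 (SE 0.28, adjusted p = 0.0368). The latter call was lost when any 1 of these 6 pools was left out, with log2 fold changes of 0.89 (without PND 40 pool 1) to 1.20 (without PND 16 large pool 1) and adjusted p of 0.0708 to 0.149.

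Of the class B ephrins, which span the membrane, Efnb1 was called in 1 comparison. Efnb2 was at 99.8 ± 16.5 CPM in PND 13 and 107 ± 2.12 CPM in PND 40 and was never called. Efnb1 was higher in PND 40 (20.2 ± 0.934 CPM) than in PND 16 small (12.7 ± 3.67 CPM), by 0.67 (SE 0.18, adjusted p = 0.0114), without overlap. The change was under 1.5-fold, at 0.48, without PND 16 small pool 3, and in a fit of these cohorts alone it was 0.65 (adjusted p = 0.0529). Efna5, the most abundant ephrin, was at 82.2 ± 4.29 CPM in PND 13 and 61.6 ± 3.3 CPM in PND 40 with no overlap, a log2 fold change of -0.42 (SE 0.11, adjusted p = 0.00938) that stayed under 1.5-fold.

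Of the 14 Eph receptors, 13 were tested and 8 were called at least once, beside 30.3% of all genes: Epha1, Epha3, Epha5, Epha7, Epha10, Ephb1, Ephb2 and Ephb4. Epha10 (chromosome 4, 124880899 to 124917800, plus strand), an Eph receptor whose kinase domain is thought to be inactive, fell in steps. It stood at 52.7, 53.8 and 46.7 CPM in PND 13, at 55.4, 57.0 and 50.2 in PND 16 small, at 35.3, 31.6 and 39.7 in PND 16 large, and at 25.5, 21.0 and 19.1 in PND 40. The non-competent pools lay above all PND 16 large pools, which lay above all PND 40 pools. The mean was 28.7 ± 8.17 CPM in competent and 52.6 ± 3.72 CPM in non-competent oocytes (6 pools each), with a log2 fold change of -0.87 (SE 0.16, adjusted p = 0.000921). PND 40 oocytes were also lower than PND 16 large ones (-0.70, SE 0.13, adjusted p = 0.00656). Both calls held in every refit, while the call of PND 16 large vs. small (-0.61, SE 0.13, adjusted p = 0.00895) was lost without PND 16 large pool 1 (-0.60, adjusted p = 0.0501) or pool 2 (-0.52, adjusted p = 0.052), fell under 1.5-fold without PND 16 small pool 2 (-0.57) and did so without the 3 pools of high Inha (-0.56). Exons of Epha10 overlap those of 1700125G02Rik on the opposite strand over 79 bases, and the strand setting of the counting is not given in the sources used here.

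Epha7 (chromosome 4, 28813131 to 28967499, plus strand), a receptor of class A ephrins, was low only at PND 40 among these cohorts. Its pools were at 21.6, 22.3 and 20.3 CPM in PND 13, at 14.9, 43.2 and 27.0 in PND 16 small, at 34.6, 22.3 and 25.9 in PND 16 large, and at 9.14, 7.57 and 9.63 in PND 40. Every PND 40 pool lay below every other pool. The log2 fold change of PND 40 was -1.29 (SE 0.30, adjusted p = 0.00707) vs. PND 13, -1.69 (SE 0.31, adjusted p = 0.00177) vs. PND 16 small and -1.65 (SE 0.31, adjusted p = 0.00932) vs. PND 16 large, and all 3 calls held in every refit.

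Epha5 and Ephb2, receptors of ephrin classes A and B, rose from low levels. Epha5 was at 0.573, 1.21 and 1.02 CPM in PND 13, at 1.9, 2.8 and 1.07 in PND 16 small, at 4.01, 3.24 and 2.95 in PND 16 large, and at 3.6, 5.22 and 5.62 in PND 40. The 6 competent pools lay above the 6 non-competent ones, with a log2 fold change of 1.52 (SE 0.34, adjusted p = 0.00362), 2.87-fold. Ephb2 was at 3.54 ± 1.29 CPM in competent and 1.31 ± 0.469 CPM in non-competent pools, again without overlap, with a log2 fold change of 1.42 (SE 0.33, adjusted p = 0.00453). Per kb both remained scarce, at 0.165 for Epha5 and 0.192 for Ephb2 beside 16.7 CPM per kb for Epha4.

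**Figure D3:**
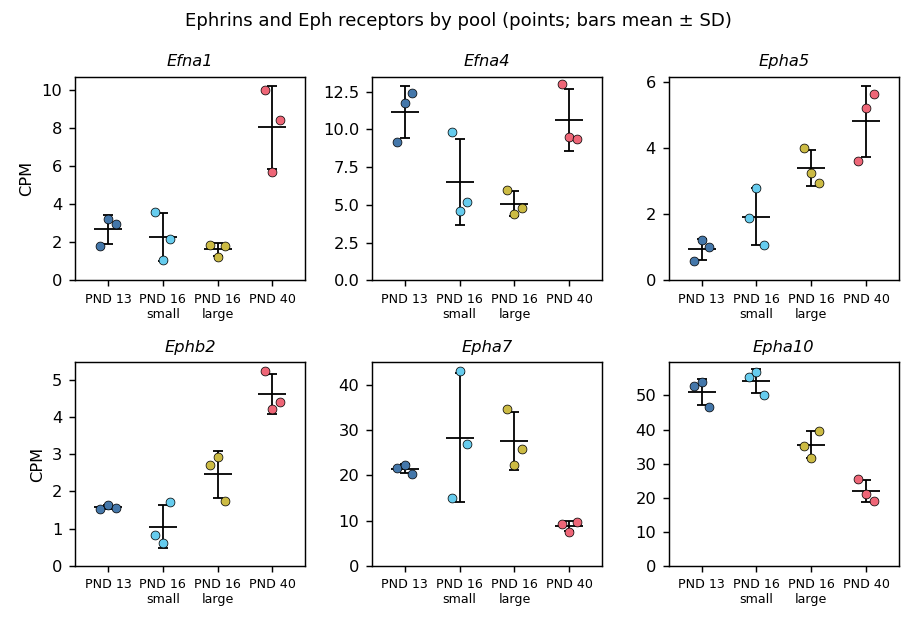
Level in each pool (vertical axes, CPM, each starting at 0) of 2 ephrins and 4 Eph receptors in the 4 cohorts (3 points per cohort, horizontal bars and whiskers mean ± SD). The PND 40 points of Efna1 lie above and those of Epha7 and Epha10 below all other points, and the highest cohort means of Epha5 and Ephb2 are those of PND 40.

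Ephb1, a receptor of class B ephrins, was lower in competent than in non-competent oocytes, at 1.84 ± 0.838 CPM vs. 4.8 ± 2.75 CPM, with a log2 fold change of -1.38 (SE 0.42, adjusted p = 0.0218). The groups overlapped. The call was lost without PND 13 pool 1, where the change was -1.14 (adjusted p = 0.0599), and without the 3 pools of high Inha, where it was -0.93 (adjusted p = 0.176). PND 13 pool 1 held 8.41 CPM of Ephb1, beside 2.03 and 2.46 CPM in the other PND 13 pools. PND 16 small pool 2 held 7.35 CPM, beside 2.77 and 5.81 CPM. Ephb1 was also lower in PND 40 than in PND 16 small (-2.15, adjusted p = 0.0125), a call kept without the 3 pools of high Inha. That call was lost without PND 40 pool 2 (-1.82, adjusted p = 0.0525).

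The remaining Eph receptors called moved between single pairs of cohorts. Ephb4, the partner of Efnb2 in vessels, was at 34.7 ± 4.99 CPM in PND 13, 19.1 ± 4.8 in PND 16 small, 22.7 ± 4.72 in PND 16 large and 28.9 ± 2.08 in PND 40, and was called lower in PND 16 large vs. PND 13 (-0.61, SE 0.19, adjusted p = 0.0303) and higher in PND 40 vs. PND 16 small (0.60, SE 0.19, adjusted p = 0.0293). Each of these calls was lost with 1 of 4 pools left out, the former without PND 13 pool 2 or 3 or PND 16 large pool 1 or 2 (adjusted p 0.0682 to 0.127) and the latter without PND 16 small pool 3 or any PND 40 pool (adjusted p 0.0506 to 0.108), and both were lost with the replicate number as a block (adjusted p = 0.0544 and 0.0515). The former was also lost without the 3 pools of high Inha, with 1 PND 13 pool (-0.82, adjusted p = 0.0767), and the latter in a fit of the compared cohorts alone (adjusted p = 0.055). Epha3 was higher in PND 16 large (34.1 ± 11.5 CPM) than in PND 13 (15.8 ± 4.63 CPM), by 1.11 (SE 0.32, adjusted p = 0.0251), a call lost without PND 13 pool 2 or 3 or PND 16 large pool 2 or 3 (adjusted p 0.0607 to 0.0931). Epha1, whose exons overlap those of Zyx on the opposite strand over 236 bases, was higher in PND 40 (11.1 ± 0.77 CPM) than in PND 16 small (6.87 ± 1.75 CPM), by 0.69 (SE 0.20, adjusted p = 0.0214), and lost the call without PND 16 small pool 2 or 3 or PND 40 pool 1 or 3 (adjusted p 0.0603 to 0.0762), without the 3 pools of high Inha (0.63, adjusted p = 0.0787) and in a fit of the compared cohorts alone (adjusted p = 0.0587).

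In the netrin system Ntn1 rose, and the receptors called moved in different directions. Ntn1 (chromosome 11, 68209364 to 68400823, minus strand), the secreted netrin-1, was at 6.16, 8.95 and 3.81 CPM in PND 13, at 7.05, 8.58 and 11.2 in PND 16 small, at 13.3, 12.8 and 13.7 in PND 16 large, and at 22.6, 24.3 and 23.4 in PND 40. All competent pools lay above all non-competent pools, and the PND 40 pools above those of PND 16 large. Its mean was 18.4 ± 5.63 CPM in competent and 7.62 ± 2.54 CPM in non-competent oocytes, with a log2 fold change of 1.27 (SE 0.25, adjusted p = 0.00172). PND 40 exceeded PND 13 by 1.89 (SE 0.25, adjusted p = 0.000138), 3.72-fold. These calls held in every refit, and PND 40 vs. PND 16 large gave 0.82 (SE 0.24, adjusted p = 0.0586), which was not called by edgeR's test and was called by DESeq2 (adjusted p = 0.0142). The call of PND 16 large vs. PND 13 (1.07, SE 0.25, adjusted p = 0.00761) was lost without the 3 pools of high Inha (0.57, adjusted p = 0.164), where PND 13 is pool 2 alone, the highest of its cohort.

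Unc5c, the most abundant of the Unc5 receptors, through which netrins can repel cells, was at 379 ± 32.4 CPM in PND 13, 436 ± 6.64 in PND 16 small, 487 ± 19.3 in PND 16 large and 473 ± 17.4 in PND 40. Its log2 fold change in competent vs. non-competent oocytes was 0.24 (SE 0.06, adjusted p = 0.0126), without overlap but under 1.5-fold. Unc5a rose at PND 40. It was at 40.6 ± 3.9 CPM in PND 13 and 64.1 ± 0.767 CPM in PND 40, without overlap, by 0.66 (SE 0.10, adjusted p = 0.000349), and without the 3 pools of high Inha, against 1 PND 13 pool, by 0.51 (adjusted p = 0.0172), under 1.5-fold. Its exons overlap those of Hk3 on the opposite strand over 34 bases.

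Unc5b (chromosome 10, 60762593 to 60831581, minus strand), an Unc5 receptor known from vessels, fell. It was at 10.03, 12.8 and 10.9 CPM in PND 13, at 9.96, 1.85 and 3.26 in PND 16 small, at 2.41, 4.22 and 1.71 in PND 16 large, and at 2.87, 3.66 and 3.38 in PND 40. The PND 13 pools and 1 PND 16 small pool were high and the other 8 pools low, so competent and non-competent pools overlapped. The means were 3.04 ± 0.904 and 8.13 ± 4.46 CPM, with a log2 fold change of -1.42 (SE 0.40, adjusted p = 0.016), kept in every refit. Against PND 13 alone, PND 16 large oocytes were lower by 2.01 (log2 fold change -2.01, SE 0.51, adjusted p = 0.0131) and PND 40 oocytes by 1.76 (-1.76, SE 0.50, adjusted p = 0.0181). The first of these was lost without PND 16 large pool 1 (adjusted p = 0.0606) or pool 3 (adjusted p = 0.0541), and the second without any 1 PND 40 pool (adjusted p 0.0505 to 0.0696).

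The 3 Slits, secreted ligands of Robos, did not move together. Slit3 (chromosome 11, 35121224 to 35708507, plus strand) was at 2.44, 2.19 and 3.85 CPM in PND 13, at 1.8, 1.19 and 4.75 in PND 16 small, at 7.2, 9.0 and 6.61 in PND 16 large, and at 4.8, 5.14 and 4.45 in PND 40. PND 16 large stood highest, above every other pool, and 1 PND 16 small pool lay within the PND 40 range. Slit3 was higher in competent oocytes by 1.20 (SE 0.31, adjusted p = 0.00883), kept in every refit. In PND 16 large vs. PND 16 small it was higher by 1.57 (SE 0.41, adjusted p = 0.0264). That call was lost without PND 16 small pool 1 (1.38, adjusted p = 0.0654) or 2 (1.23, adjusted p = 0.0508), or without PND 16 large pool 1 (1.61, adjusted p = 0.0798) or 2 (1.44, adjusted p = 0.0894), and in a fit of these cohorts alone (1.57, adjusted p = 0.0848).

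Slit2 and Slit1 fell. Slit2 (chromosome 5, 47983138 to 48307733, plus strand) was at 6.45, 9.77 and 7.74 CPM in PND 13, at 5.3, 8.15 and 10.3 in PND 16 small, at 9.41, 7.26 and 9.79 in PND 16 large, and at 4.5, 3.58 and 3.45 in PND 40. Every PND 40 pool lay below every other pool. PND 40 was lower than PND 13 by 1.05 (log2 fold change -1.05, SE 0.26, adjusted p = 0.00737) and than PND 16 small by 1.04 (-1.04, SE 0.26, adjusted p = 0.00902), both kept in every refit. The call against PND 16 large (-1.20, SE 0.26, adjusted p = 0.0162) was lost without PND 16 large pool 1 or 3 or PND 40 pool 2 or 3, with adjusted p of 0.0591 to 0.0757.

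Slit1 was at 1.04 ± 0.349 CPM in competent and 2.78 ± 1.02 CPM in non-competent oocytes, with a log2 fold change of -1.41 (SE 0.31, adjusted p = 0.00394). The groups overlapped through PND 13 pool 2, at 1.48 CPM, below PND 16 large pool 2, at 1.58. The highest Slit1 levels, 4.44, 3.15 and 3.08 CPM, were in the 3 pools of high Inha. Without these pools the change was -0.93 (adjusted p = 0.0957) and not called. In PND 40 vs. PND 16 small Slit1 was also lower (-1.53, adjusted p = 0.0207), a call kept without these pools. That call was lost without PND 16 small pool 2 or PND 40 pool 1 or 3 (adjusted p 0.0571 to 0.0784).

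Of the 4 Robos, Robo1, a Slit receptor, was the most abundant and fell. Robo1 (chromosome 16, 72308306 to 73046095, plus strand) was at 76.7, 36.6 and 65.0 CPM in PND 13, at 64.4, 69.6 and 67.9 in PND 16 small, at 39.3, 40.5 and 35.3 in PND 16 large, and at 22.4, 25.4 and 33.0 in PND 40. Apart from PND 13 pool 2, which stood within the competent range, the non-competent pools lay above all competent pools. Robo1 was at 32.6 ± 7.36 CPM in competent and 63.4 ± 13.8 CPM in non-competent oocytes, with a log2 fold change of -0.96 (SE 0.18, adjusted p = 0.00124), kept in every refit. PND 13 pool 2 is a pool of low Inha, and in PND 40 vs. PND 13 the call (-1.14, SE 0.22, adjusted p = 0.00215) was lost without the 3 pools of high Inha, where PND 13 is this pool alone (-0.44, adjusted p = 0.152). In PND 16 large vs. small Robo1 was lower by 0.81 (-0.81, SE 0.22, adjusted p = 0.0329), and this call was lost when any 1 of the 6 pools was left out (-0.85 to -0.75, adjusted p 0.0604 to 0.108).

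Robo3 was lower in PND 40 (6.55 ± 1.51 CPM) than in PND 13 (12.8 ± 4.79 CPM), by 0.97 (log2 fold change -0.97, SE 0.28, adjusted p = 0.0159), with overlap, and lost the call without PND 13 pool 2 or 3 or PND 40 pool 2 (adjusted p 0.054 to 0.0749). Robo2, the scarcest tested Robo, was higher in PND 16 large (2.32 ± 0.268 CPM) than in PND 13 (0.744 ± 0.484 CPM), by 1.63 (SE 0.55, adjusted p = 0.0427). That call was lost without PND 13 pool 1 or 3 or any 1 PND 16 large pool (adjusted p 0.078 to 0.154), without the 3 pools of high Inha, with 1 PND 13 pool (0.85, adjusted p = 0.48), with the replicate number as a block (adjusted p = 0.0555) and under total-count scaling (1.54, adjusted p = 0.0541).

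Of the 20 semaphorins 18 were tested and 8 were called at least once, beside 30.3% of all genes, with Sema3e, Sema4c and Sema6a as higher and Sema3a, Sema3b, Sema4b, Sema4f and Sema5b as lower in the older or competent group. Sema4b (chromosome 7, 80186841 to 80226527, plus strand), a transmembrane class 4 semaphorin, fell in a single step. It was at 101, 87.3 and 93.0 CPM in PND 13, at 96.0, 99.2 and 91.1 in PND 16 small, at 59.5, 62.5 and 64.5 in PND 16 large, and at 59.6, 54.9 and 60.1 in PND 40. No non-competent pool came below 87.3 and no competent pool above 64.5 CPM. The log2 fold change was -0.65 (SE 0.06, adjusted p = 1.83e-05), 1.57-fold lower, and held in every refit. Because the fall is close to 1.5-fold, its calls between single cohorts were lost where the estimate slipped under that line, in PND 16 large vs. PND 13 without PND 13 pool 1 (-0.53) or PND 16 large pool 1 (-0.58) and in PND 16 large vs. PND 16 small without PND 16 large pool 1 (-0.58), with adjusted p of 0.00222 to 0.0158. Without the 3 pools of high Inha, which leaves 1 PND 13 pool, it was -0.49 in PND 16 large vs. PND 13, -0.58 in PND 40 vs. PND 13 and -0.58 in PND 16 large vs. PND 16 small, each under 1.5-fold.

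Sema3e, a secreted semaphorin that binds Plxnd1 without a neuropilin, rose. It was at 0.764, 1.09 and 1.27 CPM in PND 13, at 0.389, 1.42 and 3.8 in PND 16 small, at 2.58, 3.47 and 4.1 in PND 16 large, and at 6.52, 5.61 and 4.81 in PND 40. The PND 40 pools lay above all others, and PND 16 small pool 3 stood within the PND 16 large range. The change in competent oocytes was 1.65 (SE 0.43, adjusted p = 0.00969), 3.13-fold, and 1.39 (adjusted p = 0.105) without the 3 pools of high Inha. In PND 40 vs. PND 13 it was 2.43 (SE 0.57, adjusted p = 0.00553), and 2.36 (adjusted p = 0.131) without those pools, against 1 PND 13 pool.

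Its receptor Plxnd1 was also higher at PND 40, at 9.31 ± 0.129 CPM beside 5.36 ± 1.69 CPM in PND 13 (0.79, SE 0.27, adjusted p = 0.0358) and 5.08 ± 1.13 CPM in PND 16 small (0.88, SE 0.27, adjusted p = 0.0252), without overlap. The call against PND 13 was lost without PND 13 pool 1 or 2 or any 1 PND 40 pool (adjusted p 0.0785 to 0.129) with the replicate number as a block (adjusted p = 0.0505), under total-count scaling (0.72, adjusted p = 0.0569) and without the 3 pools of high Inha, with 1 PND 13 pool (0.93, adjusted p = 0.0772). That against PND 16 small was lost without PND 16 small pool 2 or any 1 PND 40 pool (adjusted p 0.0599 to 0.0866) and without the 3 pools of high Inha (0.71, adjusted p = 0.0511).

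Sema3a, a secreted semaphorin that acts through neuropilin 1 and class A plexins, moved the other way. It was at 11.0, 10.2 and 8.43 CPM in PND 13, at 10.4, 13.0 and 12.8 in PND 16 small, at 8.47, 11.8 and 8.48 in PND 16 large, and at 6.22, 4.38 and 5.0 in PND 40. The PND 40 pools lay below all 9 others. PND 40 was lower than PND 13 by 0.93 (log2 fold change -0.93, SE 0.20, adjusted p = 0.00394) and than PND 16 small by 1.21 (-1.21, SE 0.21, adjusted p = 0.000838), both kept in every refit, and than PND 16 large by 0.88 (-0.88, SE 0.20, adjusted p = 0.0215), lost without PND 16 large pool 2 or PND 40 pool 2 or 3 (adjusted p 0.0884 to 0.0962).

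Sema4c and Sema6a, transmembrane semaphorins, were higher in competent oocytes. Sema4c was at 26.3 ± 1.92 CPM in PND 40, above all other pools, and at 15.9 ± 2.52 in PND 13, 12.2 ± 2.82 in PND 16 small and 17.0 ± 0.685 in PND 16 large. In PND 40 vs. PND 16 small its change was 1.11 (SE 0.17, adjusted p = 0.000429), kept in every refit, and in competent vs. non-competent oocytes 0.62 (SE 0.18, adjusted p = 0.017). The latter fell under 1.5-fold without PND 16 small pool 3 (0.51) or PND 40 pool 1 (0.57), 2 (0.58) or 3 (0.53) and under total-count scaling (0.58), and without the 3 pools of high Inha it was 0.68 (adjusted p = 0.0782). Sema6a was at 16.9 ± 2.71 CPM in competent and 9.54 ± 3.7 CPM in non-competent oocytes, with overlap. The change was 0.82 (SE 0.23, adjusted p = 0.0134), and 0.53 (adjusted p = 0.107) without the 3 pools of high Inha. In PND 40 vs. PND 16 small Sema6a was higher by 1.11 (adjusted p = 0.0184), a call kept without those pools. That call was lost without PND 16 small pool 3 (adjusted p = 0.0613) or PND 40 pool 1 (adjusted p = 0.0617).

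**Figure D4:**
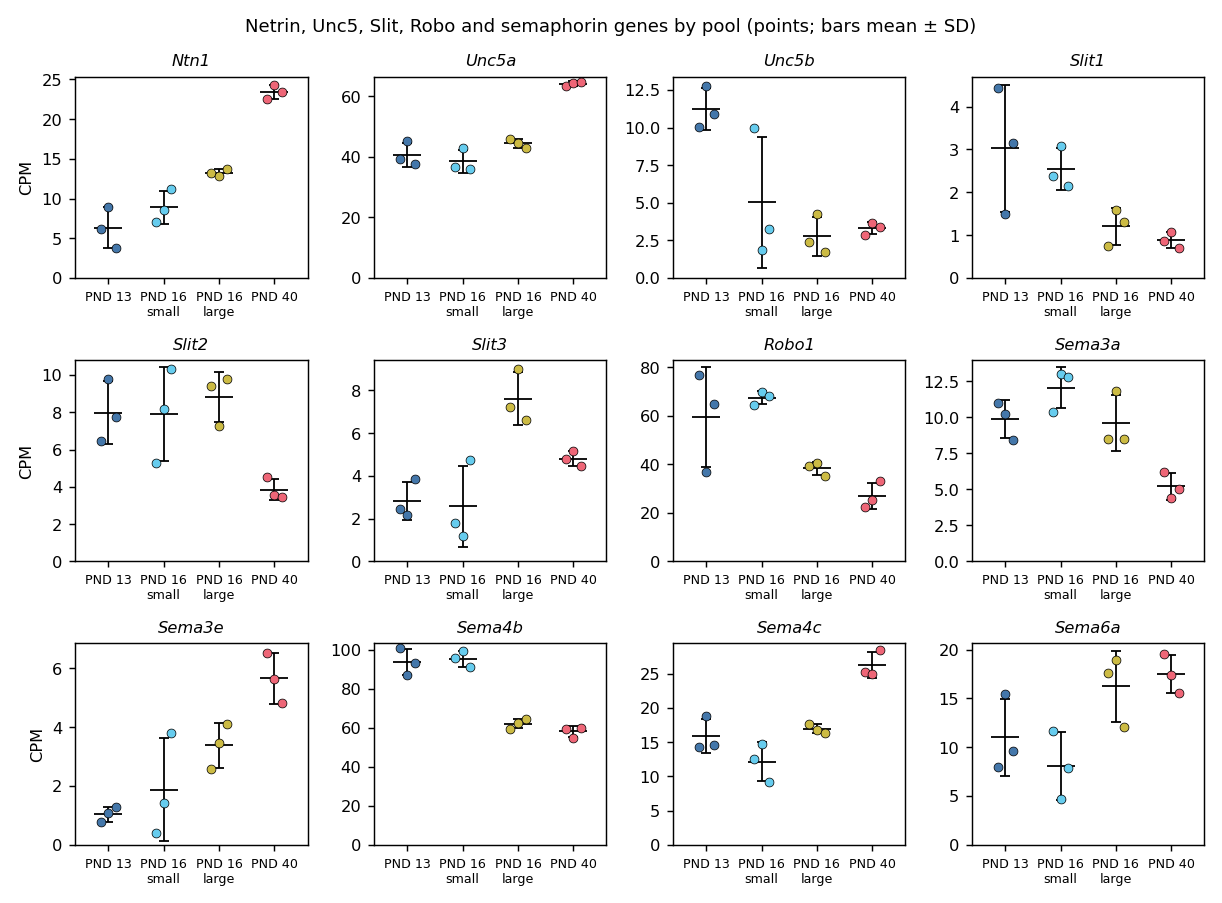
Level in each pool (vertical axes, CPM, each starting at 0) of 12 netrin, Unc5, Slit, Robo and semaphorin genes in the 4 cohorts (3 points per cohort, horizontal bars and whiskers mean ± SD). Ntn1 and Sema3e climb towards PND 40, Slit3 is highest in PND 16 large, Slit2 and Sema3a are lowest in PND 40, and Sema4b falls between the non-competent and competent cohorts.

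The other semaphorins and plexins called were scarce. Sema4f was at 3.59 ± 0.772 CPM in PND 13 and 1.46 ± 0.455 CPM in PND 40 (-1.29, SE 0.37, adjusted p = 0.0178), Sema5b at 5.48 ± 2.2 and 2.31 ± 0.463 CPM (-1.25, SE 0.36, adjusted p = 0.0166), and Sema3b at 3.23 ± 0.657 CPM in PND 13 and 1.16 ± 0.194 CPM in PND 16 large (-1.47, SE 0.51, adjusted p = 0.0491), each without overlap. Sema4f lost this call without PND 13 pool 1 or PND 40 pool 1 or 2 (adjusted p 0.0563 to 0.0756), Sema5b without PND 13 pool 2 or PND 40 pool 2 or 3 (adjusted p 0.0602 to 0.0677), and Sema3b without any 1 of the 6 pools (adjusted p 0.0618 to 0.149), with the replicate number as a block (adjusted p = 0.0605) and with no count filter (adjusted p = 0.055). Without the 3 pools of high Inha, with 1 PND 13 pool, the calls of Sema4f (-1.47, adjusted p = 0.0759) and Sema3b (-1.58, adjusted p = 0.181) were lost. Plxnb3 was at 1.25 ± 0.31 CPM in PND 40 and 0.459 ± 0.109 CPM in PND 16 small (1.43, SE 0.48, adjusted p = 0.0382), a call lost without PND 16 small pool 2 or 3 or any 1 PND 40 pool (adjusted p 0.0576 to 0.145), with the block (adjusted p = 0.0635), with no count filter (adjusted p = 0.0755), in a fit of the compared cohorts alone (adjusted p = 0.0837) and without the 3 pools of high Inha (1.31, adjusted p = 0.0923). Of the 9 plexins, 2 were called at least once, Plxnb3 and Plxnd1, beside 30.3% of all genes, and of the 2 neuropilins none, by edgeR or DESeq2, with 1 at an unadjusted p under 0.05 in PND 40 vs. PND 16 small, beside 40.9% of all genes.

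Some members had their highest levels in the pools of high Inha. Sema7a, a semaphorin tethered to the membrane by a lipid, was at 7.98 and 5.12 CPM in PND 13 pools 1 and 3 and at 6.87 CPM in PND 16 small pool 2, the 3 pools of high Inha, and at 0.6252 CPM in PND 13 pool 2, 0.292 and 0 CPM in PND 16 small pools 1 and 3, and 0.986 to 2.87 CPM in the competent pools. Sema3c, a secreted semaphorin, was at 8.17, 14.8 and 15.1 CPM in the pools of high Inha and at 2.77 to 6.87 CPM in the other 9. Neither was called by edgeR in any comparison, with a log2 fold change in competent vs. non-competent oocytes of -0.86 (SE 0.83) for Sema7a and -0.88 (SE 0.38, adjusted p = 0.09) for Sema3c, which DESeq2 called (-0.89, adjusted p = 0.0493). With the 3 pools left out, Sema7a was called as higher in competent oocytes, by 2.55 (SE 0.70, adjusted p = 0.0242), and the change of Sema3c was 0.13 (SE 0.30, adjusted p = 0.804). Sema3g, a secreted semaphorin not called with all pools, was then also called as higher, by 5.10 (SE 0.957, adjusted p = 0.00395). The non-competent pools left held 0 to 2 counts of Sema3g. It was at 7.54 CPM in PND 16 small pool 2 and at 1.67 and 1.43 CPM in PND 13 pools 1 and 3. The competent pools held 0.398 to 2.11 CPM. The part of granulosa or cumulus RNA in these levels was not tested.

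**Figure D5:**
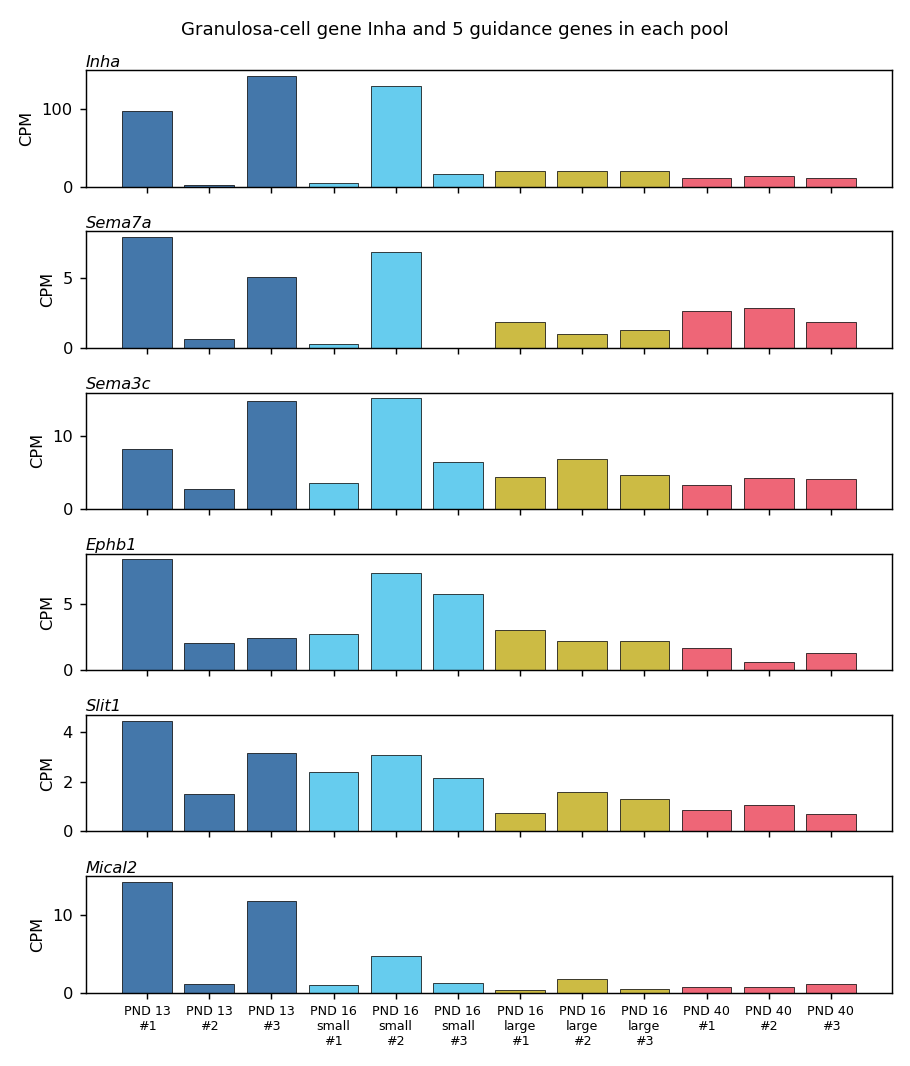
Level in each of the 12 pools (vertical axes, CPM, each starting at 0) of the granulosa-cell gene Inha, 4 guidance genes of the families and Mical2, coloured by cohort. Inha, Sema7a, Sema3c, Slit1 and Mical2 are highest in PND 13 pools 1 and 3 and PND 16 small pool 2. The tallest Ephb1 bars are those of PND 13 pool 1 and PND 16 small pool 2.

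Other genes of the same signalling systems, such as Dcc, co-receptors and the cytoplasmic partners of plexins and Eph receptors, were taken from a separate list. Of 56 partners on the list 50 were tested, and 3 were called in competent vs. non-competent oocytes, 0 higher and 3 lower, or 6% beside 15% of all genes. Without PND 13 pool 2 the count was 5. Vav3, a signalling protein that acts downstream of Eph receptors, was at 32.6, 21.4 and 28.2 CPM in PND 13, at 37.2, 22.7 and 25.9 in PND 16 small, at 14.2, 17.8 and 19.5 in PND 16 large, and at 13.5, 15.2 and 13.4 in PND 40, with no overlap and a log2 fold change of -0.84 (SE 0.15, adjusted p = 0.000802). Nck2, an adaptor that links receptors to actin, fell by 0.65 on the log2 scale (SE 0.14, adjusted p = 0.00276), or by 0.57, under 1.5-fold, without PND 40 pool 1. Mical2, of the plexin-associated oxidase family that acts on actin, had a log2 fold change of -2.71 (SE 0.72, adjusted p = 0.0124) with overlap, and its highest levels, 14.3, 11.8 and 4.74 CPM, were in the 3 pools of high Inha. Without these pools its change was -0.34 (adjusted p = 0.681).

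Unc50, matched by name only and known as a Golgi protein, was the most abundant of the 71 at 92.1 CPM per kb and was called higher in PND 40 than in PND 16 small (0.60, SE 0.09, adjusted p = 0.000386), a call that fell under 1.5-fold without PND 16 small pool 3 (0.48) or PND 40 pool 1 (0.58) and in a fit of the compared cohorts alone (0.58). It adds 1 to the count of that comparison and to no other.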

How the data were processed

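RNA-Seq was performed on 12 pools of denuded germinal vesicle oocytes from unstimulated CD-1 mice, in 4 cohorts of 3. The authors prepared directional libraries after rRNA depletion and sequenced reads of 50 bases on a HiSeq. The authors deposited raw counts of reads per gene for 24562 genes, without normalization, and all results come from these. The submitters' processing notes name FastQC, STAR, HTSeq, DESeq2, HOMER and the build mm10, without roles, and their versions and the strand setting of the counting are not given in the sources used here. A second deposited table holds log2 values of the same counts, scaled per pool, plus 1, which was checked against the counts, and no result uses it.

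Cohorts and replicate numbers came from the sample labels. After filterByExpr of edgeR at a minimum count of 10, 13943 genes remained, and TMM scaled the pools. All adjusted p-values come from the robust quasi-likelihood test of edgeR and the Benjamini-Hochberg method over all genes tested, in 1 model of the 4 cohorts for the 6 pairs of cohorts and in a model of 6 competent vs. 6 non-competent pools. Calls needed at least a 1.5-fold change and an adjusted p no higher than 0.05. Each SE was derived from the log2 fold change and its F statistic. CPM values are scaled by TMM library size, and SDs are over pools. The test was checked on simulated data. Members were named with values when called, up to 30, or when highest in their family, and of the partners the 3 with the largest change among those called. Members and lists were chosen with earlier results of these data known.

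Total counts of 17671193 to 27418358 per pool place the floor of 3 counts at 0.110 to 0.178 CPM. Beside the markers given with the results, summed levels per pool were 100.0 to 126 CPM for the endothelial, 3.74 to 7.02 CPM for the immune and 11.7 to 66.1 CPM for the theca and stroma list. Of the theca and stroma list, Hsd3b1 was at 28.5 to 50.1 CPM in the 3 pools of high Inha and at 1.37 to 3.26 CPM in the others. Col1a1 of that list was highest in PND 16 large pool 2, at 17.8 CPM. Of the endothelial list, Pecam1 alone was at 52.0 to 64.6 CPM, while Emcn was at 0 in every pool. This floor covers counting error only, and reads carried no molecular identifiers. Pools of 1 cohort differed beyond sampling noise (chi-square per gene 9.24 to 50.2 between pairs). Gene positions and merged exon lengths are from GENCODE on GRCm38, and promoter windows from RefSeq on GRCm38.p6, where 61 of 71 members matched. Alternatives were other scalings, DESeq2, other filters, no fold criterion, the replicate number as a block, other models, each pool left out, and, chosen after seeing the data, the 3 pools of highest Inha left out. R 4.3.3, edgeR 4.0.16, limma 3.58.1, DESeq2 1.42.0, Python 3.11.15, pandas 2.3.3 and matplotlib 3.10.9 were used.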

Additional observations from a re-analysis of the deposited data

Results flagged for a closer look

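Over the 6 competent and the 6 non-competent pools, 40 members were examined for a pool far from the others in its class, 80 groups in all, of which chance flags about 1 in 20, and 2 were flagged. Robo1 stood at 36.6 CPM in PND 13 pool 2, while the next lowest non-competent pool held 64.4 CPM, a gap of 0.693 of the range of the 6 pools. Sema3e stood at 3.80 CPM in PND 16 small pool 3, while the next highest non-competent pool held 1.42 CPM, a gap of 0.697 of the range.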

How the results depend on the processing

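The 79 member results called by edgeR were recomputed 1255 times. None of these changed direction, 1067 kept their call and 188 lost it. Members not called could change direction, as Sema7a (from -0.86 to 2.55) and Sema3c (from -0.88 to 0.13) did in competent vs. non-competent oocytes without the 3 pools of high Inha. Sema3g, not called with all pools, was called as higher in that fit, by 5.10. The number of calls in competent vs. non-competent oocytes (13) stayed within 1.5 times under every alternative and was 12 to 15 with 1 pool left out. With 1 pool left out, the counts ranged from 0 to 9 (PND 16 small vs. PND 13), 4 to 9 (PND 16 large vs. PND 13), 14 to 20 (PND 40 vs. PND 13), 0 to 5 (PND 16 large vs. small), 14 to 26 (PND 40 vs. PND 16 small) and 3 to 5 (PND 40 vs. PND 16 large), and from 3 to 5 for the partners. In PND 16 small vs. PND 13, where 0 members were called, DESeq2 called 4, and 1 was called with no count filter or with a filter at a mean of 1 CPM. Without the 3 pools of high Inha, which leaves 1 PND 13 pool, the counts were 7 in PND 16 large vs. PND 13, 10 in PND 40 vs. PND 13 and 7 in PND 16 large vs. small. A fit of the 2 compared cohorts alone gave 13 in PND 40 vs. PND 16 large, beside 8.19% of all genes, where the model of 4 cohorts called 3.66%. Without the fold criterion 9 partners were called in competent vs. non-competent oocytes, beside 30.7% of all genes. Over all genes, the 3 pools left out lowered the calls from 1858 to 1064 in PND 16 large vs. PND 13 and from 2637 to 1506 in PND 40 vs. PND 13. In PND 16 small vs. PND 13 the 52 calls became 361 with DESeq2 and 10 with the replicate block. The cause of these shifts was not tested.

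With the replicate number as a block the counts were 0, 9, 19, 4, 20, 6 and 13 in the order of the 7 comparisons, and 3 for the partners, all within 1.5 times. Pools of the same number did not deviate together (correlations of -0.442 to 0.0753, and 11 of 36 pool comparisons best with their own number), so the numbers were not taken as a pairing. Scaling by total counts shifted the median over all genes (log2 scale) from -0.03 to -0.12 and from -0.04 to -0.13 in PND 16 small and PND 16 large vs. PND 13, and the share of higher genes among all calls of the former from 48.1% to 24%.

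Members under about 1 CPM rest on few counts, and 3 pools a cohort limit every pairwise call.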
